A study of Quercus robur with 12 samples.

Results

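The miR166 family of pedunculate oak (Quercus robur) was represented by 6 of the 75 miRNAs in the count table, qrb-miR166a to qrb-miR166f, and all 6 rows that carry this name were taken. Growing root tips, the meristematic zones of taproots (TR) and lateral roots (LR), had been taken for small RNA sequencing from seedlings that were fully watered (control, CT) or had received strongly restricted watering for several weeks (drought stress, DS). Each of the groups TR-CT, TR-DS, LR-CT and LR-DS held 3 libraries, and each library was a pool of root tips. All seedlings were raised from acorns and grew in a peat and perlite substrate in rhizotrons, either sown there or moved there from containers. The labels do not say which of the 2 ways of cultivation a library came from, so a difference between groups cannot be told apart from a difference in cultivation. No cell type marker was measured in the small RNA table, and the labelled root zone was not checked.

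miR166 is one of the most conserved miRNAs of land plants. It pairs with the messenger RNAs of the class III homeodomain leucine zipper (HD-ZIP III) transcription factors, among them REVOLUTA and ATHB-15, and guides their cleavage. In the Arabidopsis root, miR165 and miR166 made in the endodermis move into the vascular cylinder, where they limit HD-ZIP III transcripts and so help to set which kind of xylem a cell becomes. Several loci encode nearly the same mature sequence, so the total of the family and its split among members are separate quantities.

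The sequences are shown first because the family is defined by its mature sequence and by the site it reads in its targets. The count table names the known miRNAs without their sequences. Degradome target tables of the study, which list the ends of cleaved transcripts, held 2 mature sequences of 21 nt under the name qrb-miR166, without a member letter, and these are written 5′ to 3′ with the seed (bases 2 to 8) in capitals.
qrb-miR166 query 1: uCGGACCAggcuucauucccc
qrb-miR166 query 2: uCUCGGACcaggcuucauucc
The 2 sequences shared an unbroken run of 19 bases, which lies at positions 1 to 19 of the first and 3 to 21 of the second, so they are the same stretch read from starts 2 bases apart and have different seeds. Neither seed was the seed (bases 2 to 8) of any of the 25 other known miRNA sequences in those tables. Of the 24 miRNAs of the count table that are named by their sequence, 0 held the seed of the first. The longest run that any of these 24 shared with a miR166 sequence was 6 bases.

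The sites listed for the first sequence in alignments without gaps lay in 3 oak transcripts, and alignments with gaps were left out. They are shown because those in ATHB-15 and REVOLUTA are the stretch of these HD-ZIP III messengers that the family reads. Whether the transcript without a name encodes an HD-ZIP III factor was not checked. The sites are again written 5′ to 3′, with the bases opposite positions 10 and 11 of the miRNA in capitals, between which a plant miRNA guides the cut.
Qrob_T0357230.2 (ATHB-15): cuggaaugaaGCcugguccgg
Qrob_T0602040.2 (REVOLUTA): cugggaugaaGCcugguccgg
Qrob_T0633190.2 (no name given): ccgggaugaaGCcugguccgg
The sites of ATHB-15 and REVOLUTA differed in 1 of 21 bases, and that of Qrob_T0633190.2 differed from them in 2 and 1 bases. With the first miR166 sequence the ATHB-15 site formed 18 Watson-Crick pairs and 1 G-U pair and the other sites formed 17 and 2. In all 3 the bases opposite miRNA positions 20 and 21 were unpaired and all 7 seed bases were paired. According to the study's text, miR166a and miR166d have the same mature sequence. A read of that sequence does not by itself tell these members apart, so they are given below both singly and as a sum.

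The libraries held between 160039 and 1267473 miRNA counts, of which 34.1% to 89.1% belonged to 1 sequence of 16 nt. Members a to e were counted in all 12 libraries, with 276986 counts of qrb-miR166d, 179320 of qrb-miR166b, 156207 of qrb-miR166e, 85005 of qrb-miR166a and 21689 of qrb-miR166c in all. qrb-miR166f was found in 6 libraries with 2266 counts, of which 2057 came from TR-DS replicate 3. Counts were not scaled by the length of the miRNA, and shares within the family compare members as counted. Some libraries stood apart from their own group. TR-CT replicate 3 had a larger miR166 total and a lower share of miR166b than the other TR-CT libraries. TR-DS replicate 2 had a smaller total and a higher share of miR166b than the other TR-DS libraries. Outside the family, miR171d had 41, 7 and 2804 counts in TR-CT, against 2115, 70 and 4435 in TR-DS. miR393a had 15, 3 and 236 in TR-CT, against 94, 0 and 508 in TR-DS. In these counts and the miR166 total, both libraries lay nearer to the other treatment. Other values, such as the share of miR166a and miR166d together, did not overlap between treatments in taproots. An exchange of labels was not tested. LR-DS replicate 3 was the shallowest library of the series. The description of that last sample points to the count column of LR-DS replicate 2, so its column was assigned by its title. LR-DS replicates 1 and 2 were a close pair. The chi-square per degree of freedom between their counts, which grows as libraries differ, was 25.2, against 276 to 3602 for other pairs within a group. Without LR-DS replicate 3 this pair alone stands for drought in lateral roots, and whether its libraries are independent was not tested. Results are also given without TR-CT replicate 3, TR-DS replicate 2 or LR-DS replicate 3.

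The family was one of the most abundant of the table. As a share of the counts other than the 16 nt sequence, miR166 took 19.0%, 17.9% and 51.6% in TR-CT, against 52.9%, 13.3% and 56.2% in TR-DS. It took 23.0%, 17.5% and 18.4% in LR-CT, against 43.3%, 43.9% and 17.8% in LR-DS. By this measure it was the largest family in TR-CT replicate 3, TR-DS replicates 1 and 3 and LR-DS replicates 1 and 2, and in the other 7 libraries it ranked 2 or 3. Control and drought libraries overlapped in both root types. As a share of all counts the picture in lateral roots was the other way round, with 9.03%, 11.6% and 9.58% in LR-CT, against 5.97%, 6.12% and 2.90% in LR-DS, without overlap. In taproots the share of all counts was 8.52%, 1.95% and 13.8% in TR-CT, against 14.5%, 2.20% and 14.3% in TR-DS. The direction of the family total in lateral roots thus differed between the 2 ways of counting, and the 16 nt sequence took 34.1% to 60.6% of the LR-CT counts and 83.7% to 86.2% of the LR-DS counts. How many other families did not overlap as a share of all counts was not counted, so this is not read as particular to miR166.

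**Figure D1:**
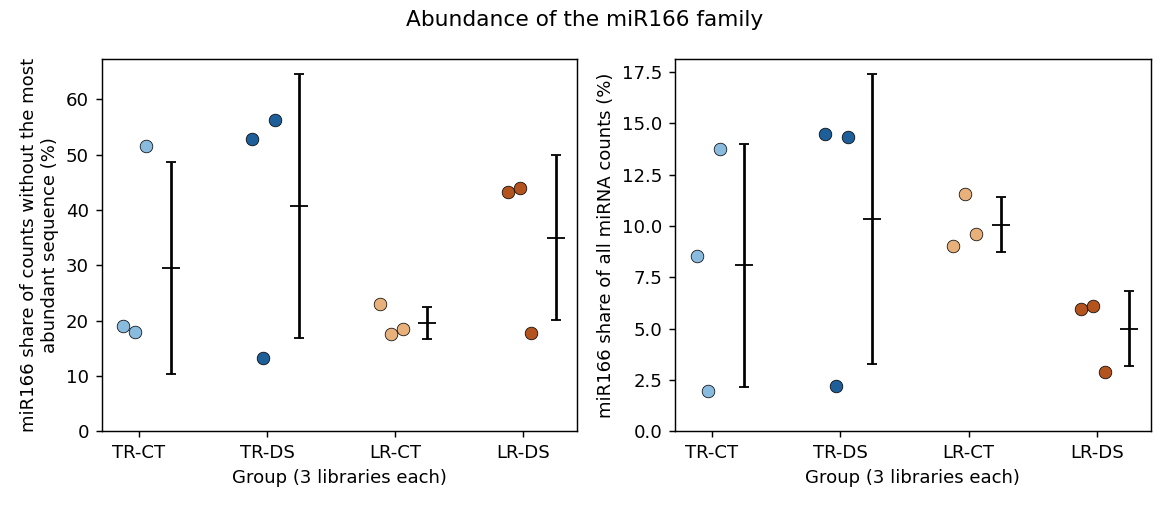
Share of miR166 counts in each library, as a percent of the counts without the most abundant sequence (left) and of all counts (right), by group. Points are libraries, and the bar beside them is the mean with its standard deviation (n = 3). Without the most abundant sequence LR-DS replicates 1 and 2, at 43.3% and 43.9%, lie above the LR-CT points, and LR-DS replicate 3, at 17.8%, lies among them. Over all counts the LR-DS points, at 2.90% to 6.12%, lie below all LR-CT points.

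Counts were then compared with edgeR's quasi-likelihood F test after TMM scaling, with Benjamini-Hochberg adjustment (FDR) over all rows and a threshold of 0.05. The family total passed in none of the 5 comparisons, while 38.3% of the 47 families and sequence-named miRNAs passed for drought in lateral roots and 0% in the other comparisons. Its log2 fold change between the root types (LR minus TR) was -1.27 (standard error 0.75, FDR 0.383) under control and -0.66 (standard error 0.74, FDR 0.914) under drought, and the interaction of root type with drought was 0.55 (standard error 1.09, FDR 0.817). The difference under control and the interaction changed direction with the libraries and with the scaling. Without TR-CT replicate 3 they were 0.15 (FDR 0.566) and -1.03 (FDR 0.851), and with scaling by library size alone they were 0.32 (FDR 0.826) and -1.36 (FDR 0.458). The interaction was also -0.26 with RLE factors and with DESeq2, 1.16 without TR-DS replicate 1 and 0.048 without TR-DS replicate 2. In taproots the drought difference of the total was 1.40 (FDR 0.611) without TR-CT replicate 3 and 1.11 (FDR 0.535) without TR-DS replicate 2, against 0.055 with all libraries. In lateral roots it was 0.40 (standard error 0.42, FDR 0.448) with all 6 libraries and did not pass. It was 1.19 (standard error 0.19, FDR 0.000453) without LR-DS replicate 3, where the close pair of LR-DS replicates 1 and 2 was the drought group. It turned to -1.01 (FDR 0.0363) with scaling by library size alone.

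miR166b was the largest member in 5 of the 6 control libraries and in none of the drought libraries. It took 44.6%, 40.3% and 22.3% of the miR166 counts in TR-CT, against 41.2%, 40.2% and 40.5% in LR-CT. Under drought it took 5.39%, 22.9% and 0.901% in TR-DS and 14.3%, 15.1% and 33.9% in LR-DS. All LR-DS libraries lay below all LR-CT libraries, where 41% of the 39 members of all families with several members did not overlap relative to their family. In taproots the highest drought library, TR-DS replicate 2, was just above the lowest control library, TR-CT replicate 3. Their 95% Wilson intervals of 22.1% to 23.8% and 22.0% to 22.5% overlap. All intervals and floors given here describe counting error alone, because the table counts reads after PCR and no use of molecular identifiers is stated. The raw counts of miR166b were 28462, 39312 and 41070 in LR-CT, against 7702, 8002 and 1572 in LR-DS, and 16899, 9975 and 20233 in TR-CT, against 2895, 2066 and 1132 in TR-DS, though depth differed between these libraries.

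miR166d was the largest member in 5 of the 6 drought libraries. Its share was 21.9%, 28.0% and 36.3% in TR-CT, against 67.6%, 37.8% and 64.1% in TR-DS. This share was higher in every drought library of taproots than in every control library. There 12.8% of the 39 members of all families with several members did not overlap relative to their family. In lateral roots the share of miR166d was 22.1%, 25.4% and 24.4% in LR-CT, against 41.6%, 39.5% and 7.56% in LR-DS. LR-DS replicates 1 and 2 lay above LR-CT and LR-DS replicate 3 lay below it (95% Wilson interval 6.84% to 8.36%). miR166a, the member described with the same mature sequence, had its highest share, 37.5%, in that same library and took 11.0% and 17.0% in the other LR-DS libraries, against 10.7%, 6.33% and 7.01% in LR-CT. In taproots the share of miR166a was 13.2%, 14.8% and 6.71% under control and 5.89%, 22.8% and 22.0% under drought, with overlap.

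**Figure D2:**
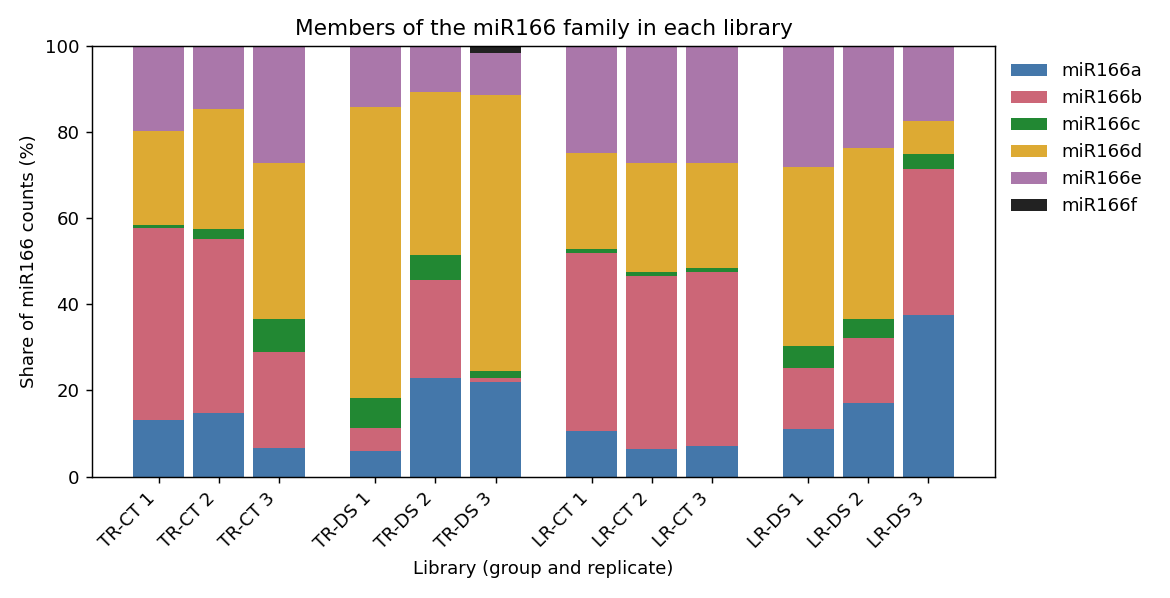
Share of each miR166 member in the miR166 counts of each of the 12 libraries, in percent, as stacked bars. miR166b fills 40.2% to 44.6% of the bar in all control libraries but TR-CT replicate 3, and miR166d is the widest band in all drought libraries but LR-DS replicate 3, where miR166a is.

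Taken as a sum, miR166a and miR166d separated the treatments in both root types. They took 35.1%, 42.8% and 43.0% of the miR166 counts in TR-CT, against 73.5%, 60.6% and 86.1% in TR-DS. In lateral roots they took 32.8%, 31.8% and 31.4% in LR-CT, against 52.5%, 56.6% and 45.0% in LR-DS. Every drought library, the lowest at 45.0%, lay above every control library, the highest at 43.0%, and LR-DS replicate 3 and TR-DS replicate 2 were the lowest drought libraries of their root types. The mean share in taproots was 40.3% ± 4.48 under control and 73.4% ± 12.7 under drought, and in lateral roots it was 32.0% ± 0.737 and 51.4% ± 5.85 (SD, n = 3 each). Such groups without overlap were found for 13.2% of the 38 members of families with several members in taproots and for 42.1% in lateral roots, and 2 of the 38 (5.26%) were higher under drought without overlap in both.

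The ratio of a member to the rest of its family does not depend on how a library is scaled. It was tested as a log2 ratio, with 0.5 added to both counts, in an exact permutation test in which drought labels were exchanged within each root type (400 arrangements, two-sided, smallest p 0.005). For the sum of miR166a and miR166d the ratio was 1.66 higher under drought on the log2 scale (exact permutation p = 0.005, FDR 0.0633 over 38 members), a sum formed after the values of its members were known. Of these 38 members, 18.4% passed 0.05 before adjustment and 0 passed the FDR. Leaving out each library in turn kept the difference between 1.39 and 1.90, with FDR values from 0.0475 to 0.19. The threshold was passed without TR-DS replicate 2, LR-DS replicate 1 or LR-DS replicate 3. The exact permutation p was 0.005 in these runs and also without LR-CT replicate 1, 2 or 3, where the FDR was 0.19. This is the smallest p the test can give, so the FDR there depended on how many other members also reached it. The same ratio was 1.01 lower in lateral roots than in taproots when root type labels were exchanged within each treatment (difference -1.01, exact permutation p = 0.005, FDR 0.0633), where 15.8% of the 38 members passed 0.05 before adjustment and 0 passed the FDR. The lowest taproot library of each treatment lay above the highest lateral root library of that treatment. Between root types 26.3% of the 38 members did not overlap under control and 10.5% under drought, and 2 of them (5.26%) were lower in lateral roots without overlap in both treatments. Leaving out each library gave -1.25 to -0.74 here, with FDR values from 0.0475 (without TR-CT replicate 3 or TR-DS replicate 3) to 0.238. Without any 1 taproot library the exact permutation p stayed at 0.005, with an FDR of 0.0475 or 0.0633. The exact permutation p rose to 0.01 without any 1 LR-CT library (FDR 0.127). It rose to 0.025 without any 1 LR-DS library (FDR 0.19 or 0.238).

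**Figure D3:**
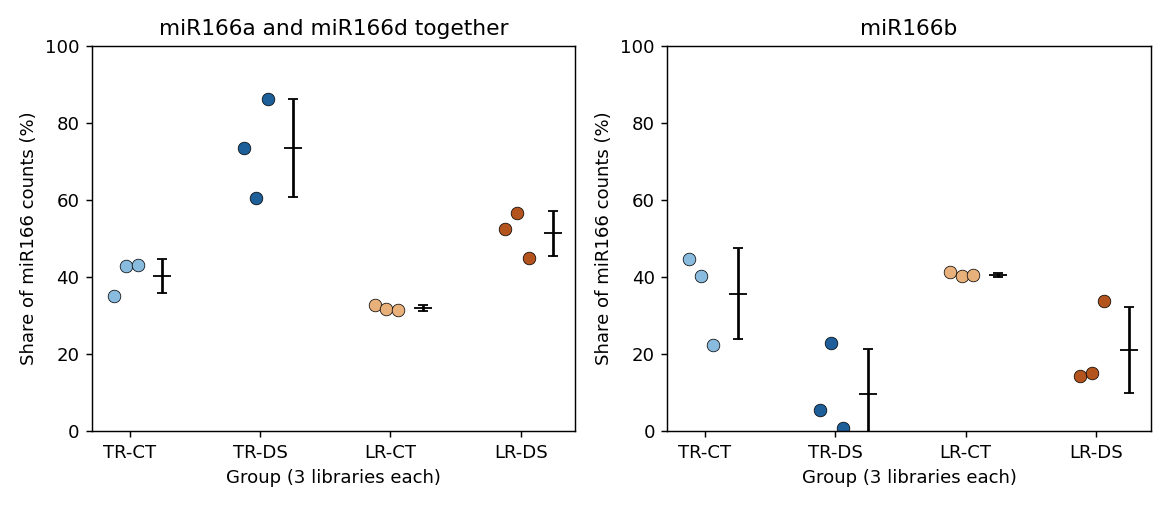
Share of the miR166 counts taken by miR166a and miR166d together (left) and by miR166b (right), in percent, by group. Points are libraries and bars the mean with its standard deviation (n = 3); the bar of miR166b in TR-DS is cut at 0. On the left all 6 drought points, from 45.0% upwards, lie above all 6 control points, and on the right TR-DS replicate 2 at 22.9% meets TR-CT replicate 3 at 22.3%.

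Singly, 0 of the 6 members passed the FDR in the exact permutation test over both root types, in which 0 of 39 members of all families passed and 15.4% passed 0.05 before adjustment. The ratio of miR166b to the rest was 2.40 lower under drought (difference -2.40, exact permutation p = 0.01, FDR 0.13), and that of miR166e was 0.61 lower (difference -0.61, p = 0.035, FDR 0.228 by exact permutation). The differences of miR166c, miR166a and miR166d were 1.53, 1.02 and 0.91, with exact permutation p of 0.065, 0.09 and 0.18. The members share a common total, so a higher ratio of some goes with a lower ratio of others. These tests, and that of the sum of miR166a and miR166d, are therefore not independent. For miR166d, leaving out LR-DS replicate 3 raised the difference to 1.42 (exact permutation p = 0.005, the smallest possible, FDR 0.0488). The ratio of miR166d to miR166a showed no difference past the test, with exact permutation p of 0.71 for drought and 0.505 for root type. Between single groups of 3 libraries the smallest two-sided exact permutation p is 0.1, so such pairs are given by overlap alone. In taproots miR166d was higher and miR166e lower without overlap, where 12.8% of the 39 members of all families did not overlap. In lateral roots miR166a and miR166c were higher and miR166b and miR166f lower, where 41% of the members did not overlap.

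**Figure D4:**
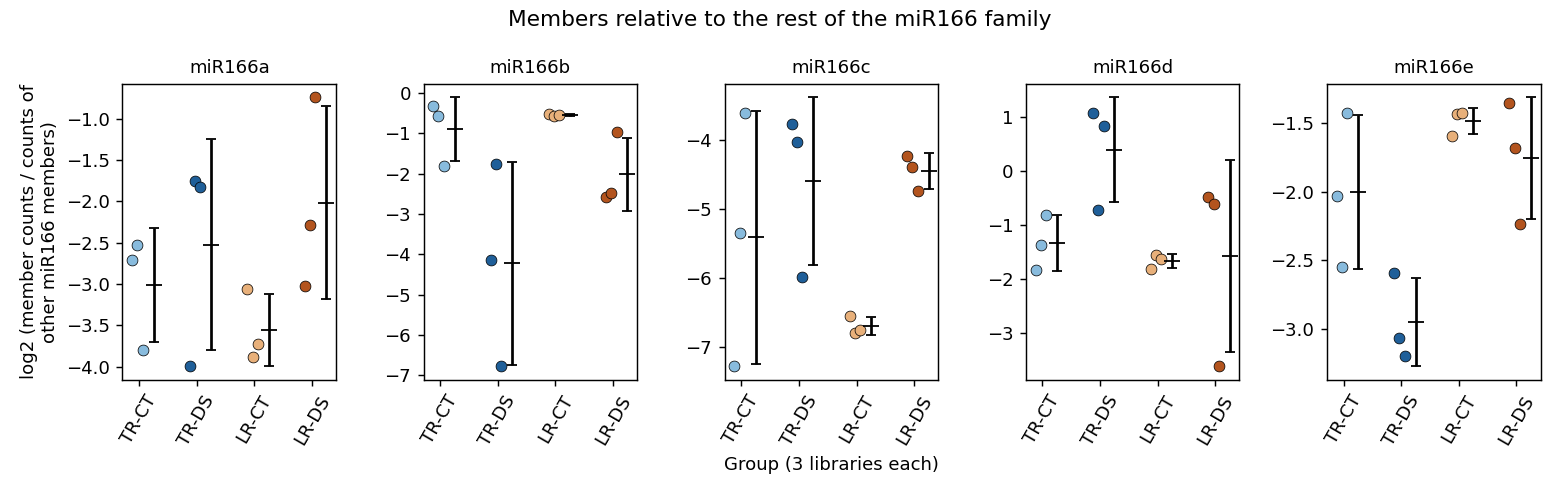
Log2 ratio of the counts of miR166a to miR166e to the counts of the other members, by group. Points are libraries and bars the mean with its standard deviation (n = 3), with a vertical scale of its own for each member. miR166b in LR-CT varies by a standard deviation of only 0.030, and miR166c in LR-DS lies wholly above LR-CT.

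miR166c was the least abundant of the members found in every library. It ranged widely in taproots, at 0.636%, 2.39% and 7.58% of the family in TR-CT, against 6.86%, 5.77% and 1.55% in TR-DS, with overlap of the groups. In lateral roots it took 1.05%, 0.890% and 0.919% in LR-CT, against 5.05%, 4.55% and 3.60% in LR-DS. miR166c was higher in all LR-DS libraries, where 41% of the 39 members of all families did not overlap. Its counts in LR-DS were 2720, 2405 and 167, and after TMM scaling its levels there were 4597, 3309 and 1112 CPM, against 523, 559 and 514 CPM in LR-CT, so LR-DS replicate 3 was the lowest of its group in level as well. miR166e took 19.7%, 14.6% and 27.1% in TR-CT, against 14.2%, 10.7% and 9.80% in TR-DS. It was lower there in every drought library than in every control library, where 12.8% of the 39 members did not overlap. In lateral roots its share was 24.9%, 27.0% and 27.1% in LR-CT, against 28.1%, 23.8% and 17.5% in LR-DS, which overlapped. Between root types miR166e was the member whose ratio to the rest was higher in lateral roots under drought without overlap, where 7.69% of the members of all families did not overlap. Over both treatments its ratio was 0.86 higher in lateral roots (exact permutation p = 0.02, FDR 0.195), and 0 of 39 members passed the FDR with 12.8% passing 0.05 before adjustment.

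The change of a member relative to its family was also tested within each root type on the counts, with edgeR's test for differential use (diffSpliceDGE), taking the family as the gene and the member as the exon. In lateral roots 2 of the 6 members passed an FDR of 0.05, where 17.9% of the 39 members of all families did. miR166c rose relative to its family by a log2 value of 2.29 (standard error 0.61, FDR 0.00587), and miR166f was lower with -3.87 (standard error 1.08, FDR 0.00817). miR166b had -1.20 (FDR 0.135) and miR166a 1.15 (FDR 0.144). Without LR-CT replicate 2 the FDR of miR166c was 0.0648 and that of miR166f 0.0555, without LR-CT replicate 3 they were 0.0664 and 0.0595, and without LR-DS replicate 3 that of miR166b was 0.000879. In 1 fit of all 12 libraries, which share one estimate of the spread, 0 of the 39 members passed and the FDR was 0.397 for miR166c and 0.297 for miR166f. With the replicate number as a block, miR166c passed (FDR 0.0445) and miR166f had an FDR of 0.0568. In taproots 0 of the 6 members passed, as did 0% of all 39, and the values of miR166a to miR166e lay between -2.64 for miR166b and 0.95 for miR166d. The standard errors there ranged from 1.76 to 1.89, against 0.56 to 0.61 in lateral roots.

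**Figure D5:**
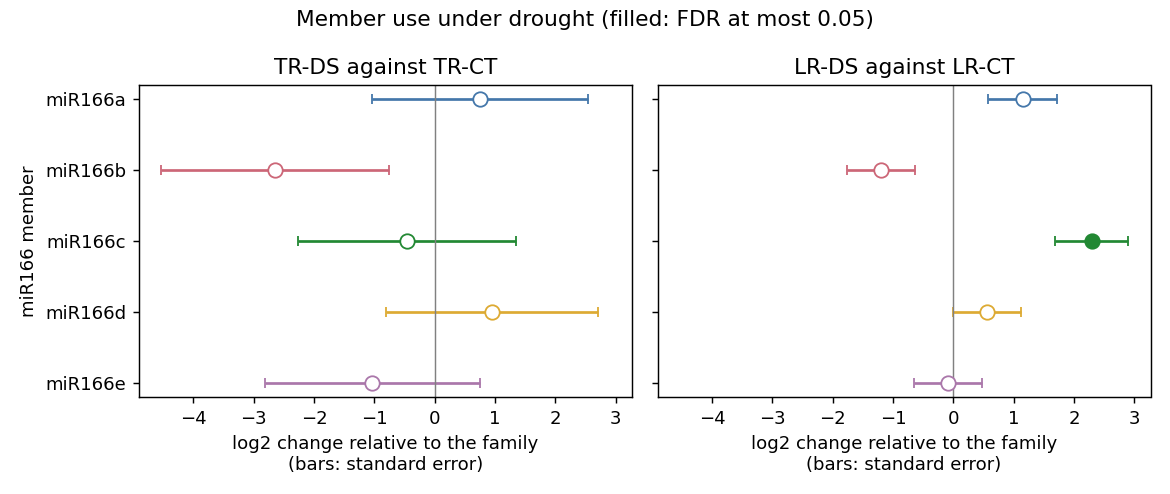
Change of miR166a to miR166e relative to the family under drought, as log2 values from edgeR's test for differential use, in taproots (left) and lateral roots (right). Bars are standard errors, and filled points have an FDR of at most 0.05. miR166c in lateral roots, at 2.29, is the filled point, and miR166b has the lowest value in both root types.

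On the scale of levels, 3 of the 6 members (miR166a, miR166c and miR166f) passed an FDR of 0.05 for drought in lateral roots in edgeR's quasi-likelihood F test, where 32% of the 75 miRNAs passed (9.33% higher and 22.7% lower). The number of members that passed was 6 without LR-DS replicate 3, with values of 1.54 (FDR 0.00167) for miR166d, 0.75 (FDR 0.0113) for miR166e and -0.68 (FDR 0.0460) for miR166b, and 32 of the 75 miRNAs passed there. The drought group of that fit was the close pair of LR-DS replicates 1 and 2. It was 1, miR166c, without LR-CT replicate 2 or without LR-CT replicate 3, where the FDR of miR166a was 0.112 and 0.146 and that of miR166f 0.0729 and 0.0924. The FDR of miR166a was also above the threshold, at 0.0575, without LR-DS replicate 2. The members called changed with the scaling too. With library size alone they were miR166b (-2.15, FDR 0.000772) and miR166f (FDR 0.00136), while miR166a had 0.23 (FDR 0.643) and miR166c 1.26 (FDR 0.0507). In the fit of all 12 libraries 0 of the 75 miRNAs passed, with an FDR of 0.227 for miR166a, 0.227 for miR166c and 0.273 for miR166f. With the replicate block miR166c passed (FDR 0.0113), and miR166a and miR166f had FDR values of 0.108 and 0.101. With miR166a and miR166d as 1 row, their sum had a log2 fold change of 0.96 (standard error 0.44, FDR 0.105) in lateral roots and 1.56 (standard error 1.03, FDR 0.998) in taproots, in tables of which 31.1% and 0% of 74 rows passed. In taproots 0 of the 6 members passed, with 0% of all miRNAs passing and 4% passing 0.05 before adjustment in edgeR, and DESeq2 called 1 miRNA, which was not a member.

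Between root types, 0 of the 6 members passed under control and 0 under drought in edgeR's quasi-likelihood F test, where 0% of all miRNAs passed and 6.67% and 5.41% passed 0.05 before adjustment. Under control miR166a, miR166b, miR166d and miR166e had log2 fold changes (LR minus TR) between -0.85 and -0.063, each within 2 standard errors of 0. miR166c had -2.83 (standard error 1.19, FDR 0.430), with 241, 591 and 6885 counts in TR-CT, against 727, 870 and 931 in LR-CT, so that TR-CT replicate 3 alone lay above LR-CT. Under drought miR166b had 1.43 (standard error 0.84, FDR 0.885) and miR166d -1.69 (standard error 0.94, FDR 0.885). The interaction test gave values of 1.55 ± 1.02 for miR166b, 2.82 ± 1.72 for miR166c and -0.22 ± 1.51 for miR166d (± standard error), and 0 members passed, with 0% of all miRNAs passing and 6.67% passing 0.05 before adjustment.

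miR166f was the rare member, and its pattern was one of presence. It had 45, 79 and 80 counts in LR-CT, which is 0.0652%, 0.0808% and 0.0790% of the family, and 0 counts in all TR-CT libraries. LR-DS held 3, 2 and 0 counts, and TR-DS held 0, 0 and 2057, the last being 1.64% of the family in that library. The ratio of miR166f to the rest of the family did not overlap between the control groups, where 23.1% of the members of all families did not, and TR-DS replicate 3 stood alone among the taproot libraries. Against a floor of 3 counts per library in TR-CT, the mean level in LR-CT was at least 7.29-fold higher after TMM scaling, at least 16.7-fold by library size and at least 9.64-fold per miR166 count. LR-CT was 12.6-fold above LR-DS after TMM scaling (95% interval 5.31 to 39.2), 29.5-fold by library size (12.4 to 91.7) and 17.0-fold per miR166 count (7.15 to 52.8), as exact counting intervals. Relative to the family, miR166f was the 1 of 6 members that passed between the root types under control (FDR 0.000278 in edgeR's test for differential use, where 2.56% of the members of all families passed). Its level there had an FDR of 0.0865, which was 0.0243 without TR-CT replicate 3. Under drought its difference between the root types rested on TR-DS replicate 3, and the fitted log2 value of -8.14 turned to 3.51 without that library. With miR166a and miR166d as 1 row its FDR there was 0.00100, and it was the only row that passed (1.37% of 73).

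Across the 12 libraries the members were not equally alike in level, which is given as a description because the libraries share depth and scaling. The Pearson correlation of log2 CPM was 0.76 between miR166d and miR166e and 0.75 between miR166c and miR166d, and it was 0.60 between miR166a and miR166d. miR166b had correlations of -0.40 with miR166a and -0.085 with miR166d. Of the 58 miRNAs outside the family with a count in at least 9 libraries, those most like the miR166 total were miR393a (0.91), which targets auxin receptor transcripts, miR162a (0.91), which targets DICER-LIKE transcripts, and miR167b (0.89), which targets auxin response factors. Among the 62 other miRNAs, here with the remaining members included, miR166c was most like miR162a (0.92), miR166d most like miR396c (0.91), which targets growth-regulating factors, and miR166e most like miR398a (0.86), which targets copper superoxide dismutases. For miR166b the known miRNA with the highest value was miR171c (0.71), which targets GRAS factors, and for miR166f no value exceeded 0.60 (miR396a).

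Other miRNAs of root patterning were read alongside, as all 22 members of the miR160, miR164, miR167, miR171, miR390, miR393 and miR396 families. Under drought in lateral roots 2 of the 22 rose and 2 fell past an FDR of 0.05, against the 32% of all miRNAs that passed. miR393a rose from 16, 23 and 14 counts in LR-CT to 189, 157 and 8 in LR-DS (log2 fold change 4.12, standard error 0.83, FDR 0.00331), although LR-DS replicate 3 had the lowest raw count, in the shallowest library. miR171d also rose, by 4.47 (FDR 7.95e-05), while miR171c fell by 2.08 (FDR 0.00891) and miR390a, which starts the production of small RNAs against auxin response factors, fell by 1.27 (FDR 0.0318). In the fit of all 12 libraries 0 of the 75 miRNAs passed for drought in lateral roots, and the FDR values of these 4 lay between 0.188 and 0.238. miR390a also missed the threshold with the replicate block (FDR 0.182), without the most abundant sequence in the scaling (FDR 0.198) and without LR-CT replicate 2 (FDR 0.198), LR-CT replicate 3 (FDR 0.157), LR-DS replicate 1 (FDR 0.138) or LR-DS replicate 2 (FDR 0.0791), and miR171c missed it without LR-CT replicate 2 (FDR 0.0563). In the other 4 comparisons 0 of the 22 passed in edgeR. The median log2 fold change of the 22 was 0.15 in lateral roots and 0.33 in taproots, beside -0.29 and 0.019 over all miRNAs.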

How the data were processed

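The deposited table holds whole read counts of 75 mature miRNAs (51 known, in 23 families, and 24 named by sequence) in 12 libraries. Libraries had been enriched for small RNAs of 18 to 30 nt. The authors removed adapters with Cutadapt, discarded reads shorter than 15 nt, and used ShortStack with Bowtie and the miRBase sequences to map and count the rest. Versions and the sharing of reads among loci are not given in the sources used here. Groups and replicate numbers came from the sample titles. The description of LR-DS replicate 3 names the count column of replicate 2, and the column numbered 3 was assigned to it by its title. Replicates are described as biological pools of root tips.

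Members with at least 1 count were fitted in R 4.3.3 with edgeR 4.0.16 (TMM, quasi-likelihood F test, diffSpliceDGE for use within families of 2 or more members), with DESeq2 1.42.0 as an alternative and exact permutation tests in Python 3.11.15. Each comparison was fitted on its own 6 libraries, and the interaction on all 12. P-values were adjusted over the whole table, and log2 CPM used a prior count of 2. Family totals are summed counts of 47 rows with TMM factors of their own. The members, the list of related miRNAs (all members of 7 families) and the tests were chosen with earlier results of these data known. The genes named were the 6 members, the 3 miRNAs most correlated with each, of which some are printed, and those of the related list that passed. Alternatives were RLE factors, scaling by library size with or without the most abundant sequence, DESeq2, filterByExpr, a replicate block, 1 fit of all 12 libraries, 5 in place of 0.5 added to counts, at least 10 counts in every library, and leaving out each library. The sum of miR166a and miR166d was added after the data were seen. In 20 simulated tables with 15 of 75 miRNAs changed by a log2 value of 2, 53.3% were found in lateral roots (8.05% of calls false). In taproots 3.67% were found (8.33% of 12 calls false). At a log2 value of 4, 97.7% and 42.7% were found. The changed miRNAs were drawn only from rows above a minimum summed count, without the most abundant sequence, so these rates do not cover rarer rows. Target expression was not analysed here.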

Additional observations from a re-analysis of the deposited data

How the results depend on the processing

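The numbers of members called moved with several settings. With scaling by library size alone, 1 member (miR166f) was called for drought in taproots, in its use there, between root types under control and in the difference of drought effects, against 0, 0, 0 and 0, and in lateral roots the members called were miR166b and miR166f in place of miR166a, miR166c and miR166f. DESeq2 and filterByExpr each called 1 between root types under control. With 1 fit of all 12 libraries, 0 members were called for drought in lateral roots and 0 in use there, against 3 and 2, the calls over all miRNAs went from 24 to 0, and 1 in use in taproots and 1 in use between root types under drought, against 0. With miR166a and miR166d summed, 1 (miR166f) was called between root types under drought. With the replicate number as a block, 1 member was called in taproots (0 without the block), 1 in use there, 1 in lateral roots and 1 in use there, and the calls over all miRNAs went from 24 to 17 in lateral roots and from 0 to 2 in taproots. The numbers share no source in the labels, and same-numbered libraries correlated between -0.30 and 0.68, so they were not taken as pairs.

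Library size alone moved the median of all miRNAs by -0.50 in taproots, -1.16 in lateral roots, 0.88 and -0.40 between root types and -1.25 in the interaction, and 2 of 35 calls in lateral roots were then higher, against 7 of 24 with TMM, 14 of 31 with DESeq2 and 14 of 23 without the most abundant sequence. It turned the family total to -1.01 in lateral roots, to 0.32 between root types under control and to -1.36 in the interaction, where RLE and DESeq2 gave -0.26 and -0.26. Members turned with library size alone as well: miR166d to -0.51 and miR166e to -1.13 for drought in lateral roots, miR166a, miR166b and miR166e to 0.016, 0.68 and 0.48 between root types under control, miR166e to -0.023 under drought, and miR166a and miR166e to -0.71 and -0.51 in the interaction, where miR166a was -0.14 with RLE, -0.14 with DESeq2 and -0.032 with TMM within each root type. miR166c in taproots was -0.26 with filterByExpr and -0.32 in the fit of 12 libraries, and its use between root types under drought -0.031 in that fit. miR166a between root types under drought was 0.027 without the most abundant sequence. The replicate block turned miR166e to -0.12 in lateral roots and 0.16 between root types under control, miR166a to 0.067 between root types under drought and the use of miR166c in taproots to 0.58. The cause was not tested for any of these.

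Leaving out each library in turn gave 1 to 6 members called for drought in lateral roots (use 0 to 3), 0 to 1 between root types under control (use 1 to 2), 0 to 1 under drought (use 0 to 1), 0 to 1 in the interaction and 0 to 1 in the exact permutation test for drought. The family total then lay between -0.35 and 1.40 in taproots, 0.35 and 1.19 in lateral roots, -1.66 and 0.15 between root types under control and -1.03 and 1.16 in the interaction. For drought in taproots miR166c lay between -1.36 and 3.33 (use -1.69 to 1.51), miR166e between -0.999 and 1.28 and the use of miR166a between -0.094 and 1.39. Between root types under control the ranges were -0.035 to 0.22 for miR166b (use -0.067 to 0.62), -1.15 to 0.24 for miR166d and -0.51 to 0.89 for miR166e. Under drought they were -0.90 to 0.55 for miR166a (use -0.23 to 1.05), -1.15 to 0.77 for miR166c (use -0.54 to 1.25), -0.29 to 0.80 for miR166e and -8.86 to 3.51 for miR166f (use -8.25 to 4.02). In the interaction they were -0.043 to 1.65 for miR166a, -0.79 to 4.58 for miR166c, -2.09 to 0.45 for miR166d and -0.80 to 2.00 for miR166e. The permutation difference of miR166f for drought lay between -1.22 and 1.48 and that of miR166a for root type between -0.39 and 0.23. Leaving miR166f out of the family total moved no group mean of a share by more than 1 SD. LR-DS replicate 3, with 160039 counts, and the low counts of miR166f limit what single libraries show.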

Other observations

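qrb-miR166a in TR-DS replicate 2 and qrb-miR166f in TR-DS replicate 3 had the same count, 2057. Whether this is more than coincidence was not tested.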
